A study of Danio rerio with 17 samples.

Results

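Calcineurin is the calcium- and calmodulin-dependent protein phosphatase of animal cells, and its subunits in zebrafish eye tissue are described here through 6 genes among the 31701 gene IDs of the count table. The genes are ppp3cb (ENSDARG00000025106), ppp3ca (ENSDARG00000004988), ppp3cca (ENSDARG00000014962), PPP3CC (ENSDARG00000057456, matched as ppp3ccb) and a pair of IDs that share the symbol PPP3R1 (ENSDARG00000069360 and ENSDARG00000092659, matched as ppp3r1a and ppp3r1b, with no source saying which is which). ppp3cb was chosen by its measured values, a transcript level that stood out in the PreC_Low libraries of these same data, so its values are a description and carry no test. The other 5 were taken as the rest of the enzyme's subunits and were tested. All 6 passed the filter on low counts.

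A calcineurin molecule joins a catalytic A subunit, encoded in mammals by PPP3CA, PPP3CB or PPP3CC, to a regulatory B subunit such as the product of PPP3R1, which binds calcium. When calcium rises, calmodulin binds the catalytic subunit and opens its active site, and the enzyme then removes phosphates from NFAT transcription factors, which move to the nucleus, and from substrates in synapses and other places. The enzyme is the target of cyclosporin and tacrolimus, and in mammals it is best known in T cells and in neurons.

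The series asked how the surroundings of a tumour differ before and after it forms, in a zebrafish model of malignant peripheral nerve sheath tumours. Eye tissue was dissociated and sorted on a red fluorescent reporter, tg(sox10:RFP), which marks cells that use the sox10 promoter, and polyadenylated RNA was sequenced in 17 libraries. Control_Low (n = 3, 4.6 to 5.0 months of age) came from fish with the reporter alone, and only reporter-low cells were profiled. PreC_Low and PreC_High (n = 3 each, 4.5 to 4.7 months) are the reporter-low and reporter-high cells of pre-cancerous tissue from brca2 hg5/hg5 fish with the reporter, and Cancer_Low and Cancer_High (n = 4 each, 7.5 to 10.4 months) are those of tumour tissue from fish of the same genotype. Each High library shares a tissue code with the Low library of the same replicate number. A sorted fraction holds many cell types, so fewer cells of a type and less RNA per cell cannot be told apart, and no label states whether replicates are different animals, which leaves a p-value as a measure of the spread between these samples only. Levels are in CPM, counts scaled to a common library total with TMM factors, which are not divided by transcript length and so rank libraries within a gene, not genes against each other. Where ranges of groups are said not to overlap, this describes the libraries only. The share of all genes whose ranges did not overlap is not given, so it lends an uncalled difference no weight.

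Library totals ran from 58711787 to 87244522 counts. SOX10 stood at 1329 to 1597 CPM in PreC_High and 748 to 1389 CPM in Cancer_High, against 9.76 to 23.8 CPM in the Control_Low and PreC_Low libraries, so the fractions matched their labels there. Cancer_Low spread from 16.04 to 418 CPM, with replicate 4 highest. PreC_Low 3 stood apart by RAG1 at 1110 CPM and RAG2 at 1020 CPM, the recombinase genes of developing lymphocytes. The Cancer libraries were sequenced with indexes 10 to 17 and the others with indexes 1 to 9. Among counts of 20 to 100, 51.2 to 53.9% were even in the Cancer libraries and 60.8 to 77.8% in the others. In every comparison of Cancer with PreC or Control this difference and the stage cannot be told apart. The same holds for age, 7.5 to 10.4 months in Cancer against 4.5 to 4.7 in PreC and 4.6 to 5.0 in Control. Genotype differs as well where Cancer is set against Control.

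ppp3cb encodes a catalytic subunit. In Control_Low its level was 9.11, 9.63 and 9.86 CPM in replicates 1 to 3. In PreC_Low it was 381.8, 468.1 and 218.8 CPM, which rests on 18817 to 32596 reads per library. The lowest PreC_Low library thus lay far above every library of the other 4 groups. On the fitted log2 scale PreC_Low exceeded Control_Low by 5.22 ± 0.74 (SE), a 37.4-fold difference of 356 ± 127 CPM (SD, n = 3) against 9.53 ± 0.383 CPM (SD, n = 3).

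In Cancer_Low ppp3cb stood at 50.8, 70.4, 3.44 and 26.03 CPM in replicates 1 to 4, a 20.4-fold spread within the group. Replicates 1, 2 and 4 lay above all Control_Low libraries, and replicate 3 lay below them. The mean of 37.7 ± 29.2 CPM (SD, n = 4) was 1.98 ± 0.62 (SE) above Control_Low on the log2 scale and fell by 3.24 ± 0.60 (SE) from PreC_Low. The reporter-high cells were low but not at the control level throughout. PreC_High gave 24.1, 22.0 and 13.4 CPM, each above every control library, and Cancer_High gave 12.9, 9.85, 9.98 and 11.03 CPM, a range that touched that of Control_Low. By mean level the order was PreC_Low, Cancer_Low, PreC_High, Cancer_High and Control_Low. Ranges overlapped between Cancer_Low and PreC_High and between Cancer_High and Control_Low, and did not overlap between the other neighbours in that order. The high level was seen in the PreC_Low libraries, with a smaller excess in 3 of 4 Cancer_Low libraries and in PreC_High.

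Because High and Low libraries share tissues, ppp3cb could be compared within each tissue. In the 3 pre-cancerous tissues the Low fraction held 15.8, 21.3 and 16.4 times the level of the High fraction. In the tumour tissues the ratios were 3.95, 7.14, 0.345 and 2.36. The Low fraction was thus higher in the tumour tissues other than that of replicate 3. In the pre-cancerous tissues the high Low level is what ppp3cb was chosen by, so those ratios are no separate evidence. The fitted High minus Low difference was -4.17 ± 0.70 (SE) in PreC and -1.78 ± 0.55 (SE) in Cancer on the log2 scale. The latter exceeded the former by 2.38 ± 0.83 (SE). The PreC difference and this change between stages also hold the values by which the gene was chosen.

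**Figure D1:**
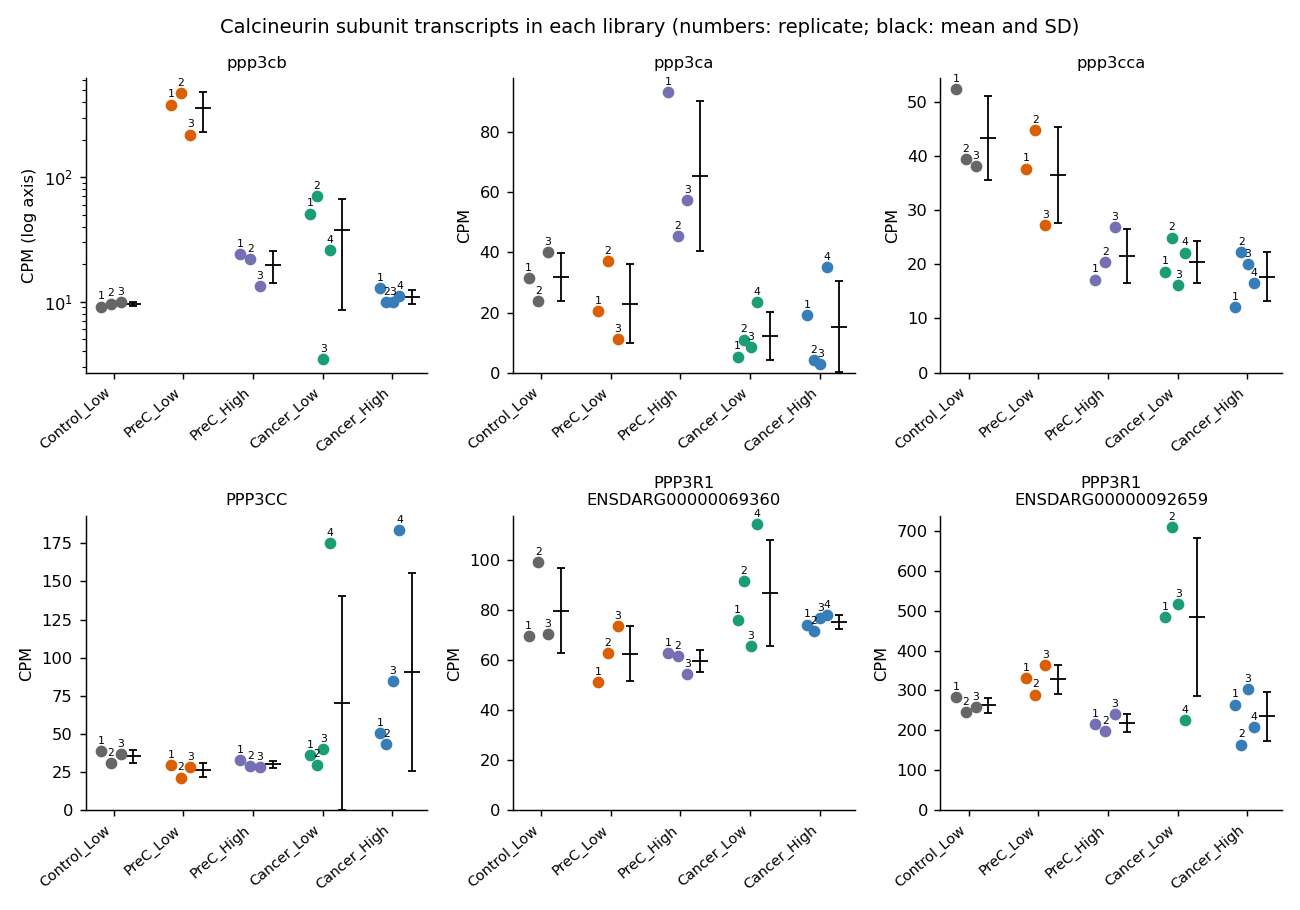
Transcript level in CPM of each calcineurin subunit gene in all 17 libraries, by group (ppp3cb on a log axis, the other genes on linear axes from 0). Numbers are replicates and black bars are the mean and SD. ppp3cb reaches 218.8 to 468.1 CPM in PreC_Low, against 9.11 to 9.86 CPM in Control_Low, while no other subunit parts PreC_Low from the rest in this way.

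From Control_Low to PreC_Low no other catalytic gene rose with ppp3cb in mean level. By mean level ppp3cca, like ppp3cb, was lower in Cancer_Low and PreC_High than in PreC_Low. PPP3CC was higher in both than in PreC_Low, and ppp3ca was lower in Cancer_Low and higher in PreC_High. Of the reads counted to the 4 catalytic genes, ppp3cb took 6.91 to 9.29% in Control_Low and 76.6 to 82.0% in PreC_Low. In Cancer_Low its share was 45.9, 51.7, 5.07 and 10.54%, in PreC_High 10.6 to 18.8% and in Cancer_High 4.48 to 13.6%. The summed level of the other 3 catalytic genes was 94.0 to 123 CPM in Control_Low and 66.7 to 103 CPM in PreC_Low, so these ranges overlapped. The regulatory pair summed to 329 to 352 CPM in Control_Low and 352 to 437 CPM in PreC_Low. As a description over the 17 libraries, the Pearson correlation of log2 CPM with ppp3cb lay between -0.381 for PPP3CC and 0.346 for ppp3cca among the 5 other subunits.

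Comparing PreC_Low with Control_Low asks what sets the reporter-low cells of the mutant eye apart before a tumour is seen. In edgeR's quasi-likelihood test with Benjamini-Hochberg adjustment over 23299 genes, 0 of the 5 other subunits passed an adjusted p of 0.05, beside 1.07% of all genes (both directions). None of the 5 had an unadjusted p below 0.05, and DESeq2 called 0 as well. The log2 differences ran from -0.47 ± 0.74 (SE) for ppp3ca to 0.32 ± 0.33 (SE) for PPP3R1 ENSDARG00000092659. Their approximate 95% intervals still allow sizeable shifts, from -1.93 to 0.99 for ppp3ca and from -0.84 to 0.35 for ppp3cca. The median over the 5 was -0.35, against 0.09 over all genes.

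**Figure D2:**
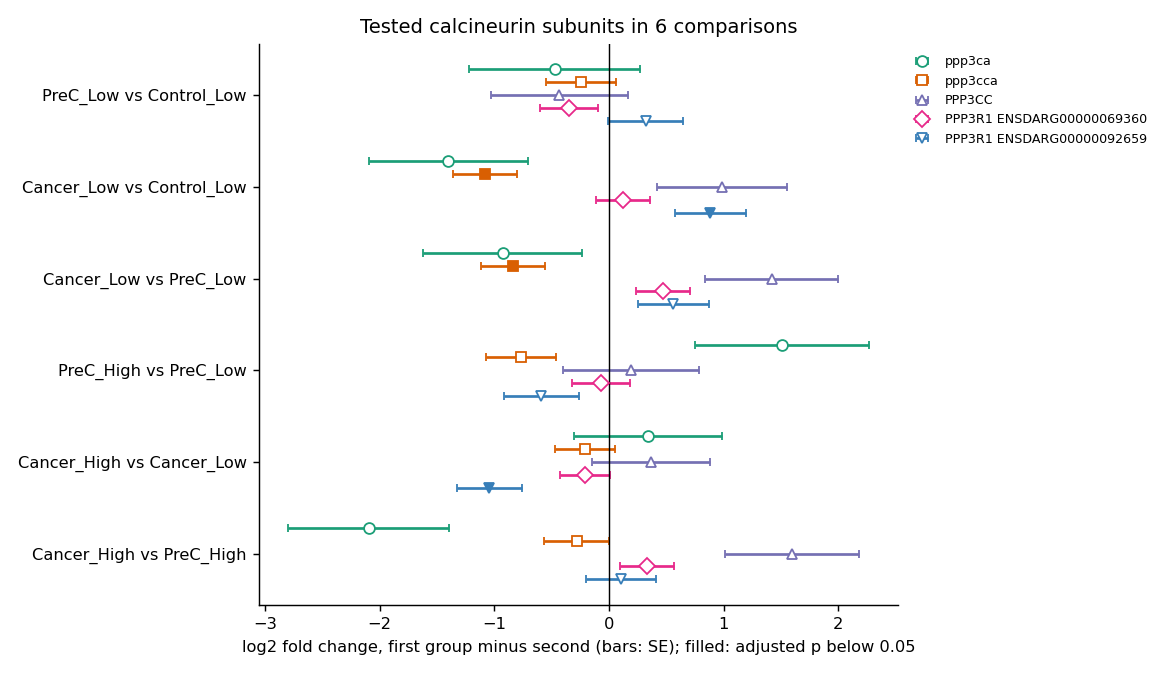
Fitted log2 fold changes with SE of the 5 tested subunits in 6 comparisons, first group minus second, with filled symbols where the adjusted p was below 0.05. The filled symbols are ppp3cca in Cancer_Low against Control_Low and against PreC_Low, and PPP3R1 ENSDARG00000092659 in Cancer_Low against Control_Low and in Cancer_High against Cancer_Low.

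ppp3cca, a zebrafish gene for a catalytic subunit of the PPP3CC type, fell in the tumour surroundings. Its level was 52.3, 39.4 and 38.2 CPM in Control_Low and 18.6, 24.9, 16.1 and 22.2 CPM in Cancer_Low. Every tumour library lay below every control library. Cancer_Low against Control_Low gave a log2 fold change of -1.08 ± 0.28 (SE, edgeR quasi-likelihood adjusted p = 0.00776), and with any 1 library left out the adjusted p stayed between 0.00894 and 0.0446. With PPP3R1 ENSDARG00000092659, described further on, it made 2 of 5 subunits called in this comparison, 1 in each direction, beside 32.8% of all genes.

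PreC_Low held 37.6, 44.7 and 27.2 CPM of ppp3cca, and its lowest library also lay above all Cancer_Low libraries. The log2 fold change between them was -0.84 ± 0.28 (SE, edgeR adjusted p = 0.0477). It was the 1 call among 5 subunits in Cancer_Low against PreC_Low, beside 19.1% of all genes. This call was lost without PreC_Low 1 (adjusted p = 0.120), PreC_Low 2 (0.196), Cancer_Low 1 (0.105), Cancer_Low 3 (0.120) or Cancer_Low 4 (0.0547), with RLE factors (0.0603), with no filter on low counts (0.0573) and when the fit held these groups alone (0.106). In the same comparison of groups the summed neuron and synapse markers stood at 354 to 633 CPM in PreC_Low and 19.7 to 46.6 CPM in Cancer_Low, and the photoreceptor markers at 27622 to 58533 CPM and 306 to 605 CPM. Control_Low was at 350 to 612 CPM for neurons and 16401 to 40545 CPM for photoreceptors. The part of these cells in the fall of ppp3cca was not tested.

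Reporter-high cells held ppp3cca at 17.2, 20.5 and 26.9 CPM in PreC_High and at 12.1, 22.3, 20.1 and 16.5 CPM in Cancer_High. These libraries lay in the range of Cancer_Low or close to it. PreC_High against PreC_Low gave -0.76 ± 0.31 (SE, edgeR adjusted p = 0.0664), which missed the threshold. The ranges did not overlap, and the edgeR adjusted p was 0.0319 without PreC_Low 3. The level was lower in High than in Low in 6 of 7 tissues, although it was nearly equal in the pre-cancerous tissue of replicate 3 (26.87 against 27.19 CPM).

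ppp3ca encodes the catalytic subunit that is the main form in mammalian brain. Its level was 31.6, 23.9 and 40.1 CPM in Control_Low, 20.6, 37.1 and 11.3 CPM in PreC_Low, and 93.3, 45.6 and 57.5 CPM in PreC_High. In the tumour it was 5.36, 11.02, 8.39 and 23.5 CPM in Cancer_Low and 19.2, 4.23, 2.75 and 35.05 CPM in Cancer_High. All PreC_High libraries lay above every other library of the series, whereas the tumour libraries were low and scattered in both fractions. Within tissues the High fraction held more ppp3ca in 3 of 3 pre-cancerous tissues and in 2 of 4 tumours.

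No comparison of ppp3ca passed the threshold in edgeR's test. Cancer_Low against Control_Low gave -1.40 ± 0.69 (SE, adjusted p = 0.131) with ranges that did not overlap. It passed with only these groups fitted (-1.41, adjusted p = 0.0498) and without both PreC_Low 3 and Cancer_Low 4 (-1.98, 0.0459). It also passed with the replicate number as a block (-2.03, 0.0139), which there links different tissues by number only. The closest was Cancer_High against PreC_High, with a log2 fold change of -2.10 ± 0.70 (SE), an adjusted p of 0.0669 and ranges that did not overlap. There 0 of 5 subunits were called, beside 10.1% of all genes. Of the 5, 2 had an unadjusted p below 0.05, and DESeq2 called those 2, which are ppp3ca and PPP3CC. Without Cancer_High 4, the highest library of its group, ppp3ca passed in edgeR as well, with a log2 fold change of -2.90 and an adjusted p of 0.0155. Summed Schwann cell and neural crest markers, with SOX10 in the list, stood at 5755 to 6380 CPM in PreC_High and 855 to 1467 CPM in Cancer_High, and their part in this difference was not tested.

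For PreC_High against PreC_Low the fitted difference of ppp3ca was 1.51 ± 0.76 (SE, edgeR adjusted p = 0.139), and it passed with limma voom (adjusted p = 0.0212) and with only these groups fitted (0.0385). In that comparison 0 of 5 subunits were called, beside 31.3% of all genes. Only ppp3cca had an unadjusted p below 0.05 there, and DESeq2 called 0.

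PPP3CC, the other gene of its type, varied little within the groups of younger fish and was uneven among tumours. Control_Low held 38.8, 30.7 and 36.9 CPM, PreC_Low 29.4, 21.3 and 28.3 CPM, and PreC_High 32.8, 29.1 and 28.1 CPM. All PreC_Low libraries lay below all Control_Low libraries, a difference that was not called (-0.43 ± 0.59 on the log2 scale, SE, edgeR adjusted p = 0.816). Cancer_Low held 35.9, 29.9, 40.03 and 175 CPM, and Cancer_High 50.7, 43.2, 84.8 and 184 CPM. The highest library of each tumour fraction is replicate 4, and both come from the same tissue code. The other 3 Cancer_Low libraries lay in or just around the control range.

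The log2 fold change of PPP3CC in Cancer_Low against Control_Low was 0.99 ± 0.57 (SE, edgeR adjusted p = 0.195) and was -0.01 without Cancer_Low 4. All Cancer_High libraries lay above all PreC_High libraries, with a log2 fold change of 1.60 ± 0.58 (SE, edgeR adjusted p = 0.0923). Between the tumour fractions it was 0.37 ± 0.51 (SE, edgeR adjusted p = 0.635), higher in High in 4 of 4 tissues, and without Cancer_Low 4 it became 1.36 with an adjusted p of 0.0137. Cancer_Low 4 also had the highest SOX10 of its group, at 418 CPM, and summed pigment cell markers of 1431 CPM against 40.7 to 442 CPM in the other 3 Cancer_Low libraries. Among Cancer_High libraries the pigment sum was highest in replicate 3, at 6450 CPM, where PPP3CC stood at 84.8 CPM. The part of these cells in the PPP3CC level was not tested.

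**Figure D3:**
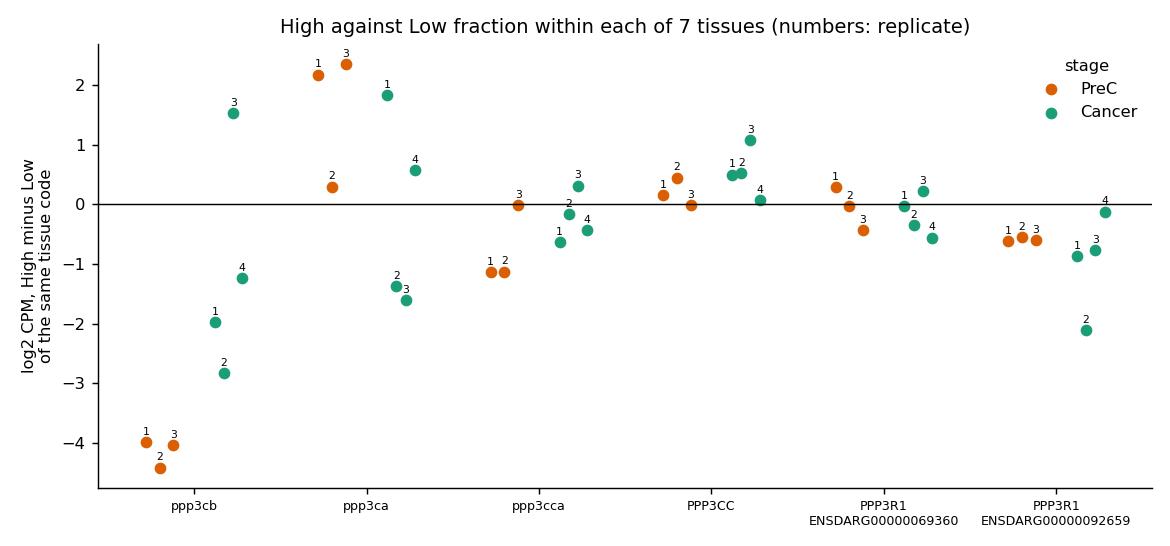
Difference in log2 CPM between the High and Low fraction of the same tissue code for each subunit, with 3 pre-cancerous (orange) and 4 tumour (green) tissues, numbered by replicate. ppp3cb lies below 0 in the tumour tissues other than that of replicate 3. It also does so in the pre-cancerous tissues, which hold the PreC_Low values by which it was chosen. PPP3R1 ENSDARG00000092659 lies below 0 in 7 of 7 tissues.

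The regulatory subunit genes behaved differently from each other. PPP3R1 ENSDARG00000092659 stood at 282, 247 and 258 CPM in Control_Low and, without overlap, at 330, 289 and 364 CPM in PreC_Low, a difference that was not called. In Cancer_Low it was 484, 710, 516 and 226 CPM. Replicates 1 to 3 of the tumour lay above every other library of the series, and replicate 4 lay below the controls. Cancer_Low exceeded Control_Low by 0.88 ± 0.31 (SE) on the log2 scale, with an edgeR adjusted p of 0.0383. That call did not hold without Control_Low 1 (adjusted p = 0.0761), Control_Low 2 (0.109), Control_Low 3 (0.106), Cancer_Low 1 (0.0636), Cancer_Low 2 (0.124) or Cancer_Low 3 (0.0737), nor with RLE factors (0.0544), limma voom (0.0571) or only the compared groups (0.0873). Against PreC_Low the difference was 0.56 ± 0.31 (SE, edgeR adjusted p = 0.222), or 0.80 with an adjusted p of 0.0318 without Cancer_Low 4.

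The reporter-high cells held less of PPP3R1 ENSDARG00000092659 than the reporter-low cells of the same tissue in all 7 tissues. PreC_High was at 216, 197 and 241 CPM and Cancer_High at 265, 164, 304 and 208 CPM. The Low fraction held 1.53, 1.47 and 1.51 times the High level in the pre-cancerous tissues. In the tumours it held 1.83, 4.33, 1.70 and 1.09 times the High level. Cancer_High against Cancer_Low gave -1.04 ± 0.29 (SE, edgeR adjusted p = 0.0121), the 1 call among 5 subunits there, beside 28.4% of all genes. It was lost without Cancer_Low 2 (adjusted p = 0.0549) and with only the compared groups in the fit (0.0598). PreC_High against PreC_Low gave -0.59 ± 0.33 (SE, edgeR adjusted p = 0.181), with ranges that did not overlap.

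Sums of several immune cell markers were also higher in Cancer_Low than in Cancer_High. Summed neutrophil markers were 674 to 3774 CPM in Cancer_Low and 20.7 to 164 CPM in Cancer_High, and macrophage and microglia markers were 755 to 3341 CPM and 122 to 181 CPM. T cell sums were 230 to 1256 CPM and 26.1 to 36.1 CPM, and B cell sums 96.1 to 1370 CPM and 17.7 to 56.2 CPM. Cancer_Low 4 was lowest of its group in all these sums, as it was in PPP3R1 ENSDARG00000092659. Müller glia and endothelial sums were lowest there too. Cancer_Low 2, highest in this gene, had a macrophage and microglia sum of 1421 CPM, below Cancer_Low 1 (2441 CPM) and Cancer_Low 3 (3341 CPM). The part of these cells in the result was not tested.

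PPP3R1 ENSDARG00000069360 was the steadiest subunit. It stood between 51.4 and 115 CPM in all 17 libraries, and group means ran from 59.7 ± 4.48 CPM (SD, n = 3) in PreC_High to 87.0 ± 21.3 CPM (SD, n = 4) in Cancer_Low. Neighbouring groups in that order all overlapped, but Cancer_High, at 71.7 to 78.1 CPM, lay above PreC_High, at 54.6 to 63.0 CPM. Its largest fitted difference was 0.47 ± 0.24 (SE) on the log2 scale, in Cancer_Low against PreC_Low (edgeR adjusted p = 0.178, DESeq2 adjusted p = 0.0488), and edgeR called it in none of the 7 comparisons.

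Whether the fraction difference changes with the tumour was tested as an interaction, the High minus Low difference of the tumours minus that of the pre-cancerous tissues. In edgeR's test 0 of 5 subunits were called, beside 3.40% of all genes, none had an unadjusted p below 0.05, and DESeq2 called 0. The estimate for ppp3ca, the largest in size, was -1.17 ± 0.99 (SE, edgeR adjusted p = 0.595).

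Calcineurin acts with partners, and 6 lists of these were described by their counts of called genes. In PreC_Low against Control_Low, where ppp3cb was 37.4-fold higher, 0 of 16 regulators and partners, 0 of 21 other calcineurin substrates and 0 of 12 catalytic subunits of other PPP phosphatases were called by edgeR, beside 1.07% of all genes, so that counts of 0 in lists of this size are near the background. At an unadjusted p below 0.05 these counts were 0, 2 and 0, and DESeq2 called 0, 1 and 0. rcan1a, which in mammals encodes a calcineurin inhibitor and is itself switched on by NFAT, stood at 59.5 ± 11.4 CPM (SD, n = 3) in PreC_Low and 56.3 ± 14.9 CPM (SD, n = 3) in Control_Low. Its log2 fold change was 0.08 ± 0.49 (SE, edgeR adjusted p = 0.980).

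The calls made in that comparison lay in lists with immune cell genes. Of 15 NFAT factors and NFAT kinases, nfatc2b alone was called, at 28.6 ± 8.44 CPM (SD, n = 3) against 3.22 ± 1.18 CPM (SD, n = 3), a log2 fold change of 3.15 ± 0.64 (SE, edgeR adjusted p = 0.0317). Of 17 genes known as NFAT targets in mammals, irf4b alone was called, at 42.6 ± 6.89 CPM against 5.89 ± 1.21 CPM, a log2 fold change of 2.85 ± 0.61 (SE, edgeR adjusted p = 0.0360). It encodes a lymphocyte transcription factor. Of 18 genes of calcium entry and its upstream signalling, 4 rose and 0 fell, beside 0.777% of all genes higher, among them PLCG1, lcp2a and ZAP70, which relay antigen receptor signals. The median log2 fold changes were -0.05, 1.30 and 0.94 in these 3 lists, against 0.09 over all genes. All 3 counts dropped to 0 without PreC_Low 2, Control_Low 1, Control_Low 2 or Control_Low 3, and the last 2 lists also without PreC_Low 3, where adjusted p-values over these genes reached 0.221. The 4 calls among calcium entry genes were also 0 with RLE factors and with the filter on CPM, and 1 without both PreC_Low 3 and Cancer_Low 4. ZAP70 is in the T cell marker list too. Summed T cell and thymocyte markers were 81.3 to 104 CPM in Control_Low and 442, 577 and 4305 CPM in PreC_Low, and neutrophil markers 113 to 181 CPM and 357 to 834 CPM. Their part in these calls was not tested.

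The sums of several marker lists differed between these groups without overlap. Gene by gene, edgeR called 3 of 13 T cell and thymocyte markers higher, beside 0.777% of all genes. It called 0 of 6 B cell markers and 0 of 4 neutrophil markers, so these sums describe the libraries only. B cell sums were 76.5 to 123 CPM in PreC_Low and 11.9 to 21.3 CPM in Control_Low, and T cell and neutrophil sums were higher as given above. Müller glia sums were lower in PreC_Low, at 3617 to 5755 CPM against 10154 to 11973 CPM, epithelial sums at 7688 to 17681 CPM against 31231 to 41960 CPM, and skeletal muscle sums at 6.49 to 15.01 CPM against 17.2 to 22.2 CPM. The other marker lists overlapped between the groups, among them neurons at 354 to 633 CPM against 350 to 612 CPM.

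Among the PreC_Low libraries, neutrophil sums of 575, 834 and 357 CPM in replicates 1 to 3 had the same order as ppp3cb. So had the macrophage, photoreceptor, fibroblast, Schwann cell and neural crest, pigment cell and lens sums. In Cancer_Low the neutrophil sums were 2484, 3774, 774 and 674 CPM, highest in replicates 2 and 1, which also held the most ppp3cb. Photoreceptor, Müller glia, endothelial and skeletal muscle sums were highest in these replicates too. So few libraries cannot tell these lists apart. T cell sums of 442, 577 and 4305 CPM in PreC_Low and 580, 629, 1256 and 230 CPM in Cancer_Low did not have the order of ppp3cb. In each group replicate 3 had the highest T cell sum and the lowest ppp3cb. The part of these cells in the ppp3cb level was not tested.

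**Figure D4:**
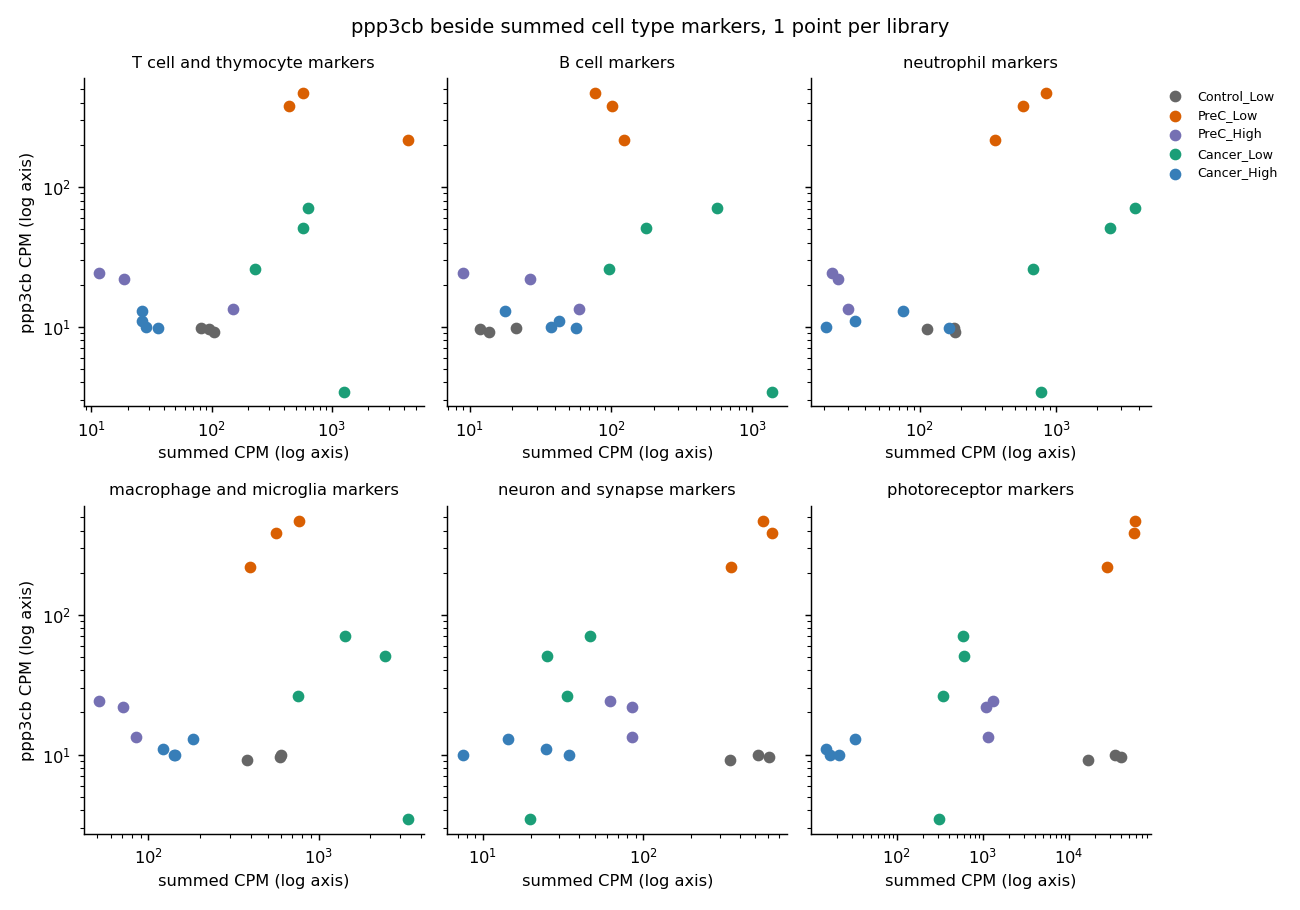
ppp3cb level against the summed level of 6 cell type marker lists, 1 point per library and both axes in CPM on log scales. PreC_Low (orange) lies above Control_Low (grey) in T cell, B cell and neutrophil sums as well as in ppp3cb, and the groups overlap in macrophage, neuron and photoreceptor sums.

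In Cancer_Low against Control_Low, NFAT targets rose in 8 of 17 and fell in 0, beside 17.2% of all genes higher, and the count was 5 without Control_Low 1 and 4 without Control_Low 2. IRF4, a lymphocyte factor, and tnfa, an inflammatory cytokine, were among them, with log2 fold changes of 5.77 and 5.57 (edgeR adjusted p = 0.000694 and 0.00231). Immune marker sums were higher in the same libraries, from Control_Low to Cancer_Low at 81.3 to 104 against 230 to 1256 CPM for T cells, 11.9 to 21.3 against 96.1 to 1370 CPM for B cells, 113 to 181 against 674 to 3774 CPM for neutrophils and 378 to 600 against 755 to 3341 CPM for macrophages and microglia. Their part in these calls was not tested. Of 16 regulators and partners 5 rose and 2 fell, beside 17.2% of all genes higher and 15.5% lower, or 6 and 4 without Cancer_Low 4. Among those that rose are ppiaa and fkbp1ab, with log2 fold changes of 1.46 and 3.45 (edgeR adjusted p = 0.00135 and 0.00333). The genes that fell are RCAN2 and RCAN3, relatives of RCAN1 that bind calcineurin. RCAN3 stood at 30.2 ± 5.66 CPM (SD, n = 3) in Control_Low and 1.37 ± 0.719 CPM (SD, n = 4) in Cancer_Low, a log2 fold change of -4.46 ± 0.69 (SE, edgeR adjusted p = 0.000146). RCAN2 went from 30.9 ± 6.36 CPM to 5.92 ± 2.39 CPM, a log2 fold change of -2.38 ± 0.41 (SE, edgeR adjusted p = 0.000394).

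Of 21 other substrates 4 rose and 4 fell in that comparison, near the 17.2% higher and 15.5% lower of all genes. AMPH and DNM1 ENSDARG00000010042, which encode proteins of synaptic vesicle recycling, fell by 4.23 and 2.80 on the log2 scale (edgeR adjusted p = 9.29e-05 and 0.000596). TFEB, a lysosomal transcription factor, rose by 2.81 (edgeR adjusted p = 0.000221). The neuron and photoreceptor marker sums given above dropped with RCAN2, RCAN3, AMPH and DNM1 ENSDARG00000010042. Müller glia sums dropped too, from 10154 to 11973 CPM in Control_Low to 543 to 1131 CPM in Cancer_Low. Epithelial sums were 31231 to 41960 CPM and 3507 to 6817 CPM in these groups. The part of these cells in these results was not tested. The calls of RCAN2, RCAN3, AMPH, TFEB, IRF4 and tnfa were kept without any 1 library. In Cancer_Low against PreC_Low, 4 of 16 regulators and partners rose and 2 fell, or 37.5%, beside 19.1% of all genes. With 1 library left out, 0 to 5 rose and 2 to 3 fell. rcan1a rose from 59.5 ± 11.4 CPM (SD, n = 3) to 187 ± 91.2 CPM (SD, n = 4). Its log2 fold change was 1.65 ± 0.49 (SE, edgeR adjusted p = 0.0246). That call was lost without PreC_Low 1, PreC_Low 2, PreC_Low 3 or Cancer_Low 2, and its cause was not tested. RCAN2 and RCAN3 were those that fell.

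Between fractions, calcium entry genes were lower in High in 12 of 18 in PreC and 11 of 18 in Cancer, beside 22.0% and 17.9% of all genes lower, and stayed at 9 to 12 and 11 to 13 with 1 library left out. NFAT targets were lower in 9 of 17 and 14 of 17, with 7 to 9 and 10 to 14 when 1 library was left out. The count in PreC was 5 with only the compared groups in the fit. In PreC 1 target, NR4A2 ENSDARG00000044532, was higher in High (log2 fold change 1.44 ± 0.42, SE, edgeR adjusted p = 0.0150), and in Cancer 0 were. ITPR1 ENSDARG00000074149, a channel that releases stored calcium, was at 6.22 ± 1.47 CPM in PreC_High and 122 ± 46.9 CPM in PreC_Low (SD, n = 3 each). In the tumour it was at 2.69 ± 0.789 CPM in Cancer_High and 47.1 ± 22.6 CPM in Cancer_Low (SD, n = 4 each). The log2 fold changes were -4.29 ± 0.46 and -4.13 ± 0.40 (SE, edgeR adjusted p = 1.05e-05 and 2.57e-06). The other ITPR1 ID, ENSDARG00000014655, was not called in PreC (-0.76 ± 0.35, SE, edgeR adjusted p = 0.105). Of 15 NFAT factors and NFAT kinases, 6 were lower and 1 higher in High in PreC, and 5 lower and 0 higher in Cancer. nfatc2b fell by 3.95 ± 0.66 in PreC and by 3.44 ± 0.56 in Cancer on the log2 scale (SE, edgeR adjusted p = 0.000332 and 0.000263). The higher gene in PreC was NFATC4, by 1.79 ± 0.57 (SE, edgeR adjusted p = 0.0247). That call was lost without PreC_High 2, PreC_Low 1 or PreC_Low 3. rcan1a was 52.8 ± 35.7 CPM in Cancer_High and 187 ± 91.2 CPM in Cancer_Low (SD, n = 4 each), a log2 fold change of -1.82 ± 0.44 (SE, edgeR adjusted p = 0.00577). In PreC its difference was -0.20 ± 0.49 (SE, edgeR adjusted p = 0.786), and the interaction had an adjusted p of 0.196. calm2a, 1 of 6 listed genes for calmodulin, which activates the phosphatase, was higher in High, with 177 ± 7.23 CPM in PreC_High against 48.8 ± 4.24 CPM in PreC_Low, and 228 ± 47.7 CPM in Cancer_High against 88.5 ± 29.8 CPM in Cancer_Low. Its log2 fold changes were 1.86 ± 0.28 and 1.37 ± 0.24 (SE, edgeR adjusted p = 0.000142 and 0.000510). The calmodulin genes did not move as 1 group. In PreC calm1b fell by 1.66 ± 0.54 (SE, edgeR adjusted p = 0.0271) and the other 4 were not called, and in Cancer calm1a and calm3a rose by 1.49 and 0.82 (edgeR adjusted p = 0.00411 and 0.0181) while calm1b was at -1.23 (0.0559). T cell marker sums were 11.6 to 150 CPM in PreC_High against 442 to 4305 CPM in PreC_Low. In the tumours they were 26.1 to 36.1 CPM in Cancer_High against 230 to 1256 CPM in Cancer_Low. Sums for B cells, macrophages and microglia, neutrophils, photoreceptors, Müller glia, fibroblasts, endothelium and erythrocytes were also lower in High in both stages, without overlap. Schwann cell and neural crest sums were higher in High in both stages. The part of these cells in these differences was not tested.

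Among the 98 list genes, a difference between the stages was called by edgeR's interaction test for 2, or 2.04%, beside 3.40% of all genes, so the count is not a result about the lists. They are RCAN2 and DNM1 ENSDARG00000010042. DNM1 ENSDARG00000010042 had an interaction of 4.06 ± 0.74 (SE, adjusted p = 0.00685). It stood at 2.01 ± 0.399 CPM in PreC_High against 35.7 ± 16.9 CPM in PreC_Low. In the tumours it was at 3.22 ± 2.03 CPM in Cancer_High against 3.42 ± 0.847 CPM in Cancer_Low. The other DNM1 ID, ENSDARG00000009281, went the other way in PreC, at 5.09 ± 0.682 CPM in High against 0.584 ± 0.425 CPM in Low. Its log2 fold change there was 3.12 ± 0.98 (SE, edgeR adjusted p = 0.0230). The RCAN2 call, 2.40 ± 0.59 (SE, adjusted p = 0.0334), was lost without PreC_High 2, PreC_High 3, PreC_Low 1, PreC_Low 2, Cancer_High 4 or Cancer_Low 3, where the adjusted p reached 0.0936, with the tissue as a block (2.23, adjusted p = 0.130) and with only the compared groups in the fit (0.0992).

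The genes beside ppp3cb on the chromosome did not share its level. Around it the RefSeq table of the assembly GRCz12tu, which is not the build of the files and was used only for gene order, lists 5 protein-coding genes on either side. Of these 10, brd8b matched more than 1 ID and was left out, and dnd1 had 0 reads in Control_Low. Of the 9 with 1 ID, edgeR called 0 in PreC_Low against Control_Low, beside 1.07% of all genes, so this count is near the background. Of these 9, 1 had an unadjusted p below 0.05, and DESeq2 called 1. The next gene on 1 side, sting1, an innate immune sensor, was at 9.37 ± 1.49 CPM in Control_Low and 9.10 ± 1.54 CPM in PreC_Low (SD, n = 3 each), a log2 fold change of -0.04 ± 0.82 (SE, edgeR adjusted p = 0.998). On the other side ube2d2, a ubiquitin-conjugating enzyme, was at 124 ± 8.22 CPM and 91.7 ± 9.42 CPM, a log2 fold change of -0.43 ± 0.30 (SE, edgeR adjusted p = 0.553). The largest difference with reads in both groups was that of zgc:92242, -1.07 ± 0.36 (SE, edgeR adjusted p = 0.150).

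**Figure D5:**
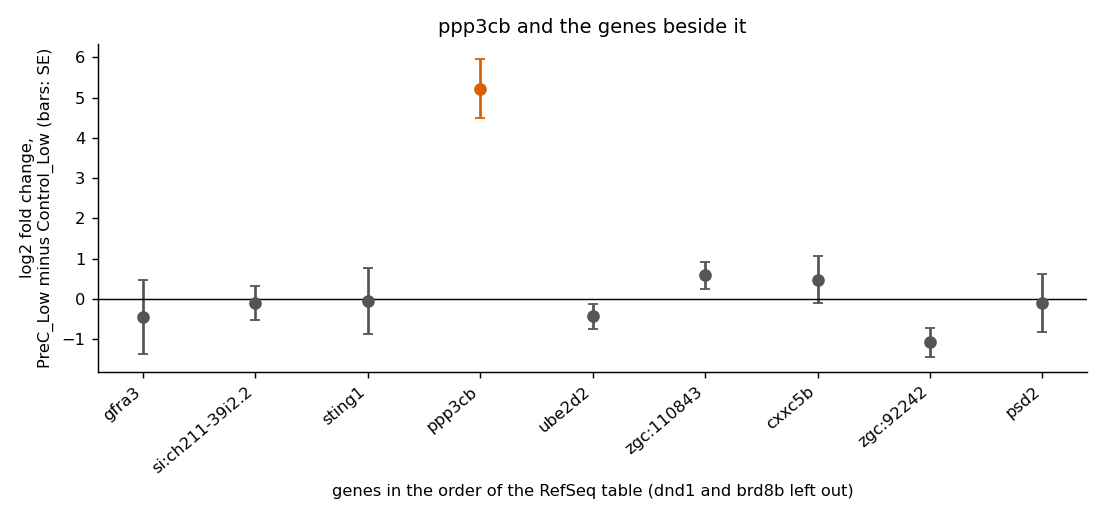
Fitted log2 fold change with SE, PreC_Low minus Control_Low, of ppp3cb and of the genes listed beside it in RefSeq order, leaving out brd8b and dnd1. ppp3cb stands at 5.22 and its neighbours lie between -1.07 and 0.59.

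By likeness of log2 CPM over the 17 libraries, among 10976 genes of sufficient level, the pattern of ppp3cb was closest to SPECC1L ENSDARG00000006719 (Pearson r = 0.783), DLGAP4 (0.767), kdm4ab (0.720), ABCA3 (0.716) and SORL1 (0.693), followed by LATS1, fthl31, TMEM185A, sox12 and retreg2 (0.686 to 0.652). By rank the Spearman correlation was 0.608 for SPECC1L ENSDARG00000006719 and for DLGAP4, 0.627 for kdm4ab, 0.779 for ABCA3 and 0.257 for SORL1. Both measures are descriptions over libraries that share groups, tissues and depth, and they include the PreC_Low libraries by which ppp3cb was chosen. None of these genes came close to ppp3cb in size. SPECC1L ENSDARG00000006719 was at 68.6 ± 10.3 CPM in PreC_Low and 38.7 ± 5.54 CPM in Control_Low, and sox12, a SOX family transcription factor, at 44.7 ± 11.8 CPM and 8.66 ± 2.67 CPM (SD, n = 3 each).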

How the data were processed

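Counts per gene for 31701 Ensembl IDs in 17 libraries were used as deposited by the authors, as whole numbers with no normalization. Per the submitters' processing notes, FastQC, STAR, HTSeq, DESeq2 and the build danRer10 were used; versions, roles, annotation release, strand setting and the handling of reads shared between paralogs are not stated in these sources, so the duplicated subunit genes may share reads. Groups and replicates come from the titles, tissue pairs from the descriptions; 1 age typed with the letter O was read as 5.0 months.

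The 5 groups were fitted together in edgeR 4.0.16 (quasi-likelihood, R 4.3.3) with TMM factors, robust shrinkage and filterByExpr (minimums of 10 and 15 counts), which kept 23299 genes. A gene is called when its p, adjusted over all of them by Benjamini-Hochberg, is under 0.05. Standard errors come from the log2 fold change and its F value, and 95% intervals take the estimate as normal. The 7 comparisons are 3 among Low groups, 2 between fractions, 1 between High groups and the interaction. The test was checked on simulated counts.

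Members, lists and markers were chosen with earlier results of these data known. Listed symbols were matched ignoring case, then without the paralogue letter; of 226 listed symbols, 21 list entries had no match. The text names all subunits, up to 4 called list genes per list and comparison by adjusted p, 10 genes by likeness to ppp3cb (mean log2 CPM of at least 2) and its neighbours; rcan1a is also given where it was not called, and calm1b and calm3a were added after their values were seen. T cell, B cell and other marker lists (15) were summed in CPM.

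Each result was recomputed with RLE factors, without a filter, with a filter on CPM (1 or more in 3 libraries), DESeq2 1.42.0, limma 3.58.1 voom with the tissue as correlation (0.181), only the compared groups, the replicate or tissue as a block, each library left out and, chosen after seeing the data, PreC_Low 3 and Cancer_Low 4 both left out. Residuals of High and Low libraries of a tissue correlated across genes at 0.306 to 0.426 in Cancer and -0.009 to 0.075 in PreC; the pairing comes from the tissue codes. Part of the genotype and 1 of the called list genes are not reported here.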

Additional observations from a re-analysis of the deposited data

Results flagged for a closer look

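PPP3CC in Cancer_Low 4 stood at 175 CPM, far from the other 3 libraries of its group, whose gaps to each other were small against the whole range of the group. Of 12 groups of 4 libraries looked at in this way, 6 genes in 2 tumour groups, this was the 1 that stood out. Its gap to the nearest library was 0.930 of the range of the group. Chance flags about 1 in 20 groups, so 1 of 12 is not rare. The groups are not independent, because the tumour fractions share tissues. The High fraction from the tissue of Cancer_Low 4 was also the highest of its group, at 184 CPM, with a smaller gap to the next library.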

How the results depend on the processing

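The count of the 5 tested subunits called depended on the setting in 5 comparisons. For Cancer_Low against Control_Low (2) it was 1 with RLE factors, 1 with voom, 3 with the replicate block and 3 without both PreC_Low 3 and Cancer_Low 4, where ppp3ca passed as well, and 1 to 2 with 1 library left out. For Cancer_Low against PreC_Low (1) it was 0 with RLE factors, with no filter, with only the compared groups and with the replicate block, 3 with DESeq2, 2 without both PreC_Low 3 and Cancer_Low 4, and 0 to 1 with 1 library left out. For PreC_High against PreC_Low (0) it was 2 with voom, 1 with only the compared groups, 1 without both libraries and 0 to 1 with 1 left out. For Cancer_High against Cancer_Low (1) it was 0 with only the compared groups, 2 without both libraries and 0 to 2 with 1 left out. For Cancer_High against PreC_High (0) it was 2 with DESeq2, 1 with voom, 2 with the replicate block, which there pairs libraries by number only, and 0 to 1 with 1 left out. In the comparisons among Low groups, too, the replicate block links libraries of different tissues by number only. The tissue block changed no subunit call between fractions. The ppp3cb mean of Control_Low was 10.1 CPM with RLE factors. The causes were not tested.

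Signs changed in differences near 0 that were not called. PPP3CC in Cancer_Low against Control_Low was -0.0415 without both libraries and -0.00686 to 1.24 with 1 left out. PPP3R1 ENSDARG00000069360 was -0.0676 and -0.0391 to 0.313 there. In PreC_High against PreC_Low it was 0.116 with the CPM filter, 0.0523 with only the compared groups, 0.124 with the tissue block, 0.0975 without both libraries and -0.195 to 0.0630 with 1 left out. In Cancer_High against Cancer_Low, ppp3ca was -0.149 with voom, -0.158 with the tissue block and -0.465 to 0.891 with 1 left out, and PPP3CC -0.238 to 1.36. PPP3R1 ENSDARG00000092659 in Cancer_High against PreC_High was -0.000225 with the CPM filter and -0.0390 to 0.248 with 1 left out. In the interaction PPP3CC ran from -0.427 to 1.17 and PPP3R1 ENSDARG00000069360 from -0.271 to 0.0231.

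Over all genes, PreC_Low against Control_Low gave 250 calls, 72.4% of them higher, and 1408 with DESeq2, 783 with voom (36.8% higher), 866 with only the compared groups, 438 with the replicate block, 162 without both libraries and 50 to 405 with 1 left out. RLE factors gave 60.3% higher there and put the all-gene median at -0.02 on the log2 scale, in place of 0.09. Cancer_High against PreC_High gave 2364 calls, 3906 with DESeq2 and 1388 with only the compared groups. The interaction gave 792, and 2131, 1304, 475, 417 and 1388 with DESeq2, voom, only the compared groups, the tissue block and without both libraries. Of the settings run on the list genes named by rule, 1325 kept the call and 141 lost it, and 0 turned its sign.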
